A study of Homo sapiens with 6 samples.

Results

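FGF3, FGF19 and 7 genes that lie beside them at 11q13 (TPCN2, MYEOV, LTO1, ANO1, FADD, PPFIA1 and CTTN) were followed in NCI-N87 cells after depletion of SCAMP1. They are the protein-coding entries with these symbols, 9 of 58735 genes (19951 of them protein-coding), taken in the order of their starts on chromosome 11. FGF3 and FGF19 were chosen by their lower FPKM in SCAMP1-depleted cells in an earlier look at the same contrast, and the other 7 by their place beside them, so the differences given for the 9 genes are a description and not a test. FGF3 and FGF19 were lower in all 3 SCAMP1-depleted libraries, ANO1 was higher in all 3, and the remaining 6 genes moved by less than a doubling or halving.

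NCI-N87 is an established human gastric carcinoma line of epithelial origin. Cells were infected with lentivirus and polybrene, and stable populations were kept under puromycin (2 μg/ml), so both groups carried the vector pSIH-H1-puro and its selection. The 3 shCtrl libraries (shNC in the labels) came from cells with the empty vector, and the 3 shS1#1 libraries (shScamp1 in the labels) from cells with 1 short hairpin RNA against SCAMP1, a membrane protein of recycling vesicles. Cells with the other hairpin of the study were not analysed here, so effects of SCAMP1 loss and of this 1 hairpin cannot be told apart. Cells were harvested at about 80% confluence. The labels call the 3 libraries of each group biological replicates. RNA-seq was not among the assays that the study repeated independently, and separate infections or cultures were not stated, so the p-values measure only the spread between these samples, part or all of which may be technical.

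The band 11q13 is one of the regions most often amplified in epithelial tumours, and its genes are usually gained together with CCND1, the cell cycle gene encoding cyclin D1. FGF3 encodes a paracrine fibroblast growth factor, silent in most adult tissues, that binds receptors on neighbouring cells. FGF19 encodes an endocrine fibroblast growth factor of the small intestine that signals through FGFR4 with the co-receptor KLB and represses bile acid synthesis in the liver. Receptor binding is relayed through adaptors and the RAS and MAP kinase pathway, which in turn induces feedback inhibitors such as the dual specificity phosphatases and Sprouty proteins. Copy number was not measured here.

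The 9 genes span 1388 kb of chromosome 11 (GRCh38, GENCODE 29). From the short-arm side, TPCN2 lies at 69048897 to 69162440, MYEOV at 69294138 to 69367726, LTO1 at 69653076 to 69675416, FGF19 at 69698232 to 69704642 and FGF3 at 69809969 to 69819024. ANO1 follows at 70078302 to 70189528, FADD at 70203163 to 70207390, PPFIA1 at 70270700 to 70385312 and CTTN at 70398404 to 70436584. LTO1, FGF19 and FGF3 are read from the reverse strand and the other 6 genes from the forward strand. The closest pairs are PPFIA1 and CTTN, 13.1 kb apart, and ANO1 and FADD, 13.6 kb apart. In these gene models 259 kb separate FGF3 from ANO1, but the RefSeq start of ANO1 (below) lies inside that gap.

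RefSeq promoter windows (GRCh38.p14) were available for 6 of the 9 genes. The windows of FGF3 and ANO1 are shown because these neighbours, whose gene models lie on either side of the 259 kb gap, moved in opposite directions. Each holds the 250 bases before the RefSeq start, 5′ to 3′ on the strand of the gene, with matches to any motif searched in capitals.
FGF3, chr11:69819417-69819666, reverse strand: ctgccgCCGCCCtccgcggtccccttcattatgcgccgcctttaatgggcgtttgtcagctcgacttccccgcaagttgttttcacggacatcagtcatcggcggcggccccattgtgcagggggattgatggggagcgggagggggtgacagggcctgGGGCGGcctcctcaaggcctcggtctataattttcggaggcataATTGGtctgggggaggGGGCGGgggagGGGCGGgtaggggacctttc
ANO1, chr11:69985657-69985906, forward strand: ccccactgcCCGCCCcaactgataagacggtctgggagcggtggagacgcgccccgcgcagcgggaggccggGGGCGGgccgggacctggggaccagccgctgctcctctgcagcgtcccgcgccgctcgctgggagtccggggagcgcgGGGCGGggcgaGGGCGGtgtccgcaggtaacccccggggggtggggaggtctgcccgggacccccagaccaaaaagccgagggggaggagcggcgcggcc

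The motifs searched on both strands were TATAAA for the TATA box, CCAAT for the CCAAT box, GGGCGG for the GC box, CACGTG for the E-box and TGACTCA for the AP-1 site, and no matches overlapped in these 2 windows. The FGF3 window held 4 GC boxes, which began between 244 and 20 bases before the start, and 1 CCAAT match 47 bases before it. The ANO1 window also held 4 GC boxes, between 241 and 89 bases before the start, and no CCAAT match. Of all 35116 promoter windows of this length, 42.6% held a GC box, 32.0% a CCAAT match, 10.7% a TATA box, 6.34% an E-box and 4.20% an AP-1 site. None of the last 3 was found in the windows of the 6 genes, and all 6 held a GC box. G and C made up 64.4% of the FGF3 window and 78.0% of the ANO1 window, against a median of 58.0% over all windows. The RefSeq start of FGF3 lies 392 bases upstream of the gene model used for counting. For ANO1 it lies 92395 bases upstream, so the FPKM of ANO1 cover exons of a shorter gene model and do not measure use of the window shown.

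The libraries held 14311769 to 15988700 reads on genes. SCAMP1 itself fell from 12.1 ± 0.56 FPKM in shCtrl to 1.69 ± 0.31 in shS1#1 (SD, n = 3 each), a reduction of 86.0% (limma on all genes tested, adjusted p = 0.000248, and p = 0.1 by the exact two-sided permutation test, the smallest that 3 against 3 libraries allow). All 7 epithelial markers (EPCAM, CDH1, KRT8, KRT18, KRT19, CLDN4 and ERBB2) were at 54.5 FPKM or more in every library. Their summed level ran from 5528 to 5812 FPKM in shCtrl and from 9234 to 10149 FPKM in shS1#1. Most of this rise lay in the keratins KRT8, KRT18 and KRT19. KRT8 ran from 1491 to 1588 FPKM in shCtrl and from 2874 to 3129 in shS1#1. EPCAM did not rise, with 150 to 156 FPKM in shCtrl and 141 to 154 in shS1#1. Markers of blood (4), endothelium (3) and mesenchymal cells (2) all had means over the 6 libraries under 0.5 FPKM, with no library above 0.635 FPKM, and of 4 stromal markers only COL1A1 had a higher mean, at no more than 0.773 FPKM. One library stood apart. In shS1#1 replicate 2 the mitochondrial share of reads was 9.21%, against 6.09% to 6.78% in the other 5, and the median gene deviated by 0.299 on the log2 scale from the mean of the other libraries of its group, against 0.0842 to 0.208. For 6 of the 9 genes this library lay outside the range of the other shS1#1 libraries, and its part in the differences is given below where it moved a value.

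Levels are given as FPKM (fragments per kilobase of gene length, scaled per library), which can be set side by side between genes only roughly. The gene length is that of all annotated exons together, 7872 bases over 18 transcripts for LTO1 and 1214 over 2 for FGF3. Genes with many transcripts may therefore read low beside genes with few. Reads on exonic bases shared with other genes (below) add to this limit, so the order of levels is approximate. The scaling is that of the deposited values and was not by the summed reads on genes alone. Scaling by summed reads gave a lower log2 fold change for each of the 9 genes. In shCtrl cells CTTN and MYEOV were by far the most abundant, with means of 54.6 and 40.5 FPKM, above 94.7% and 92.4% of the protein-coding genes tested. FGF3 followed with 11.6 FPKM and FADD with 10.7, and the libraries of these neighbours in the order overlapped. PPFIA1 (7.15), LTO1 (5.49), TPCN2 (3.98), ANO1 (1.96) and FGF19 (1.66 FPKM) came next, each without overlap with the next. In shS1#1 cells the order changed in its middle. FGF3 had dropped from below MYEOV to the level of LTO1, TPCN2 and ANO1, and these 4 genes, with means between 4.11 and 4.39 FPKM, overlapped each with the next. FGF19 remained the lowest, at 0.654 FPKM, and CTTN and MYEOV, at 66.8 and 61.0 FPKM, overlapped at the top.

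**Figure D1:**
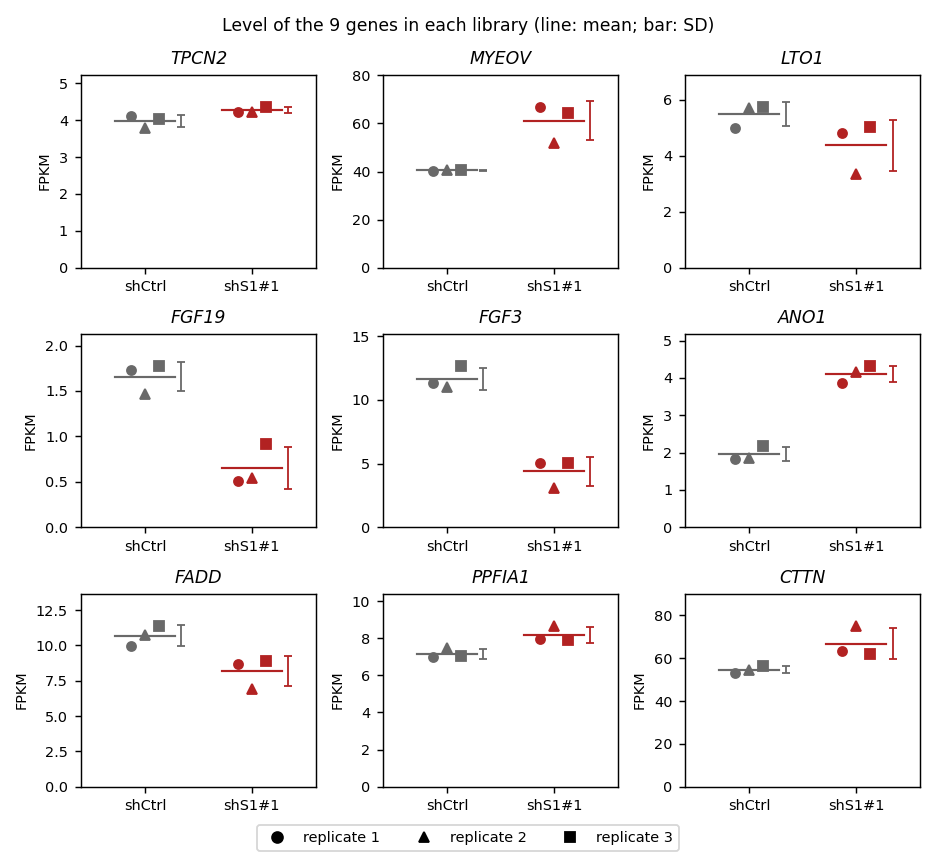
FPKM of each of the 9 genes (vertical axes, each from 0) in the 3 shCtrl and 3 shS1#1 libraries, with the marker showing the replicate number, the horizontal line the mean and the bar beside it the SD. FGF3 sat between 10.97 and 12.6 FPKM in shCtrl and between 3.07 and 5.07 in shS1#1, ANO1 between 1.83 and 2.17 and between 3.88 and 4.31, and LTO1 was the gene whose groups overlapped.

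Among the ligands, FGF3 (ENSG00000186895) measured 11.3, 10.97 and 12.6 FPKM in shCtrl replicates 1 to 3, and 5.02, 3.07 and 5.07 FPKM in shS1#1 replicates 1 to 3. The groups were far apart, and the lowest value was that of shS1#1 replicate 2. The means were 11.6 ± 0.88 and 4.39 ± 1.14 FPKM (SD, n = 3 each), 2.66-fold lower in shS1#1, and the log2 fold change was -1.42 on the log2(FPKM + 0.1) scale (SE 0.20, 95% interval -1.90 to -0.94). Without shS1#1 replicate 2 the log2 fold change was -1.19. These values rested on 218 to 237 reads per shCtrl library and 51 to 90 per shS1#1 library, so counting error alone is appreciable in the depleted cells. In a bulk population, fewer cells with FGF3 RNA and less FGF3 RNA per cell cannot be told apart, which holds for every gene below.

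FGF19 (ENSG00000162344) measured 1.73, 1.47 and 1.77 FPKM in shCtrl and 0.504, 0.537 and 0.922 FPKM in shS1#1. The groups did not overlap, and shS1#1 replicate 3 came nearest to the control range. The mean went from 1.66 ± 0.16 to 0.654 ± 0.23 FPKM (SD, n = 3 each), 2.53-fold lower, and its log2 fold change was -1.26 (SE 0.24, 95% interval -1.85 to -0.67). Here depth was the limit, as the gene had 60 to 67 reads per shCtrl library and 18 to 33 per shS1#1 library. FGF19 met the rule for a call (below), but not when any 1 of the shCtrl libraries was left out, with log2 fold changes between -1.34 and -1.21.

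ANO1 (ENSG00000131620), which encodes a calcium-activated chloride channel of secretory epithelia and the pacemaker cells of the gut, went the other way. It measured 1.83, 1.86 and 2.17 FPKM in shCtrl and 3.88, 4.15 and 4.31 FPKM in shS1#1. Every shS1#1 library lay well above every shCtrl library, and shS1#1 replicate 2 lay between the other shS1#1 libraries. The mean rose 2.10-fold, from 1.96 ± 0.19 to 4.11 ± 0.22 FPKM (SD, n = 3 each). Its log2 fold change was 1.04 (SE 0.10, 95% interval 0.80 to 1.28) on 175 to 380 reads per library. This value is close to the fold required for a call, and it fell just under it, to 0.99, without shCtrl replicate 1.

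MYEOV (ENSG00000172927), a primate gene first described in myeloma and often gained with CCND1, was at 40.4, 40.6 and 40.4 FPKM in shCtrl and at 67.0, 51.8 and 64.3 FPKM in shS1#1. The control libraries were almost identical and all lay below the depleted ones, of which replicate 2 was the lowest. The log2 fold change was 0.58 (SE 0.11, 95% interval 0.32 to 0.84), or 1.51-fold by the means, and 0.70 without shS1#1 replicate 2.

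CTTN (ENSG00000085733) encodes cortactin, which binds branched actin filaments at the cell cortex and at sites of endocytosis. It was the most abundant of the 9 genes, at 53.1, 54.3 and 56.4 FPKM in shCtrl and 63.3, 75.1 and 62.0 FPKM in shS1#1. The groups did not overlap, with replicate 2 the highest of the depleted libraries. The log2 fold change was 0.29 (SE 0.09, 95% interval 0.06 to 0.51), and 0.20 without that library. PPFIA1 (ENSG00000131626), which encodes the scaffold protein liprin-α1 of focal adhesions, measured 6.96, 7.46 and 7.04 FPKM in shCtrl against 7.94, 8.67 and 7.91 FPKM in shS1#1, a log2 fold change of 0.19 (SE 0.07, 95% interval 0.02 to 0.36). Both differences were small and in the same direction in all 3 depleted libraries.

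FADD (ENSG00000168040), the adaptor that couples death receptors to caspase-8, measured 9.93, 10.8 and 11.4 FPKM in shCtrl and 8.70, 6.94 and 8.91 FPKM in shS1#1. The depleted libraries all lay below the controls and replicate 2 was the lowest, with a log2 fold change of -0.39 (SE 0.12, 95% interval -0.67 to -0.11) that became -0.28 without it. LTO1 (ENSG00000149716), whose product works with YAE1 in the maturation of the iron-sulphur protein ABCE1, measured 4.98, 5.73 and 5.76 FPKM in shCtrl against 4.80, 3.34 and 5.02 FPKM in shS1#1. Its groups overlapped, since shS1#1 replicate 3 lay above shCtrl replicate 1, and the log2 fold change of -0.34 (SE 0.17, 95% interval -0.74 to 0.06) shrank to -0.15 without shS1#1 replicate 2.

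TPCN2 (ENSG00000162341) encodes a two-pore cation channel of endolysosomes. It measured 4.11, 3.80 and 4.02 FPKM in shCtrl and 4.22, 4.23 and 4.37 FPKM in shS1#1. The groups were narrowly separated in FPKM. The log2 fold change of 0.10 (SE 0.07) had a 95% interval from -0.07 to 0.27, the smallest difference of the 9 genes. With libraries scaled by summed reads the log2 fold change was 0.03, so the narrow separation may depend on the scaling.

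**Figure D2:**
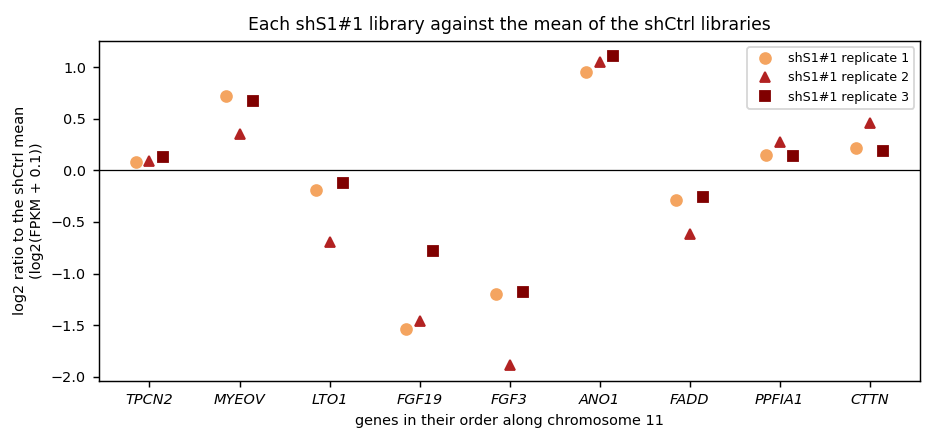
Log2 ratio of each shS1#1 library to the mean of the 3 shCtrl libraries (vertical axis, on log2(FPKM + 0.1)) for the 9 genes in chromosome order, with 1 marker per replicate. FGF3 and FGF19 lay between -1.89 and -0.78 and ANO1 between 0.96 and 1.11, and replicate 2 was the lowest for MYEOV, LTO1, FGF3 and FADD and the highest for PPFIA1 and CTTN.

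A gene was called where its adjusted p (limma, Benjamini-Hochberg over the 15556 genes that averaged 0.5 FPKM or more) was under 0.05 and its log2 fold change exceeded 1 in size. All 9 genes were tested and 3 were called, beside 3.16% of all genes tested. FGF3 and FGF19 were called lower, beside 0.746% of all genes, and ANO1 higher, beside 2.42%. Because the choice of the genes used this contrast, nothing is read from these counts. In FPKM, the groups did not overlap for 8 of the 9 genes, beside 41.4% of all genes tested. This was likewise fixed in part by the choice. The log2 fold changes of the 9 genes had a median of 0.10, against -0.02 over all genes tested, and an SD of 0.81, with a range from -1.42 for FGF3 to 1.04 for ANO1. By strand, the 3 genes read from the reverse strand all had negative values, and 5 of the 6 read from the forward strand had positive ones, FADD being the exception. FGF3 and FGF19, both read from the reverse strand, were chosen by their lower FPKM, so nothing is read from this split. FGF3 and FGF19, 105 kb apart, were neighbours in order, and the next gene on one side of them (LTO1) and on the other (ANO1) differed in sign.

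Around the 9 genes, from 500 kb before TPCN2 to 500 kb after CTTN, lie 55 other annotated genes, 12 of them protein-coding. Of these, 18 passed the filter on low values (9 protein-coding) and 15 had no read in any library. None of the 18 was called by limma, 3 had an unadjusted p under 0.05 and 1 an adjusted p under 0.05. That gene was AP000439.2, a long non-coding RNA between MYEOV and CCND1, with 1.18, 1.39 and 1.48 FPKM in shCtrl and 0.624, 0.666 and 0.652 FPKM in shS1#1. Its libraries did not overlap, and its log2 fold change was -0.95 (SE 0.17, adjusted p = 0.0150 by limma) on 22 to 56 reads per library. The adjusted p was 0.0507 to 0.0848 without any 1 of the shCtrl libraries and 0.0531 without shS1#1 replicate 3.

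CCND1, the gene for cyclin D1 and the usual centre of 11q13 amplification, lies between MYEOV and LTO1. It was at 69.2, 69.1 and 69.8 FPKM in shCtrl and 76.2, 112 and 81.7 FPKM in shS1#1. All depleted libraries lay above the controls, but replicate 2 stood far from the others, and the log2 fold change of 0.36 (SE 0.15) did not pass the test (limma, adjusted p = 0.165). Without that library it was 0.19, with an adjusted p of 0.0214 and far from the fold required. FGF4, the fibroblast growth factor gene between FGF19 and FGF3, had no read in any of the 6 libraries, where a count of 0 allows up to 3 reads per library. SHANK2, a synaptic scaffold gene beyond CTTN, had a log2 fold change of 0.20 (SE 0.24, adjusted p = 0.609 by limma) at a mean of 0.623 FPKM in shCtrl, and 0.08 without shS1#1 replicate 2. The 18 genes had a median log2 fold change of -0.03, 6 of them had groups without overlap (beside 41.4% of all genes tested), and 8 were positive and 10 negative.

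**Figure D3:**
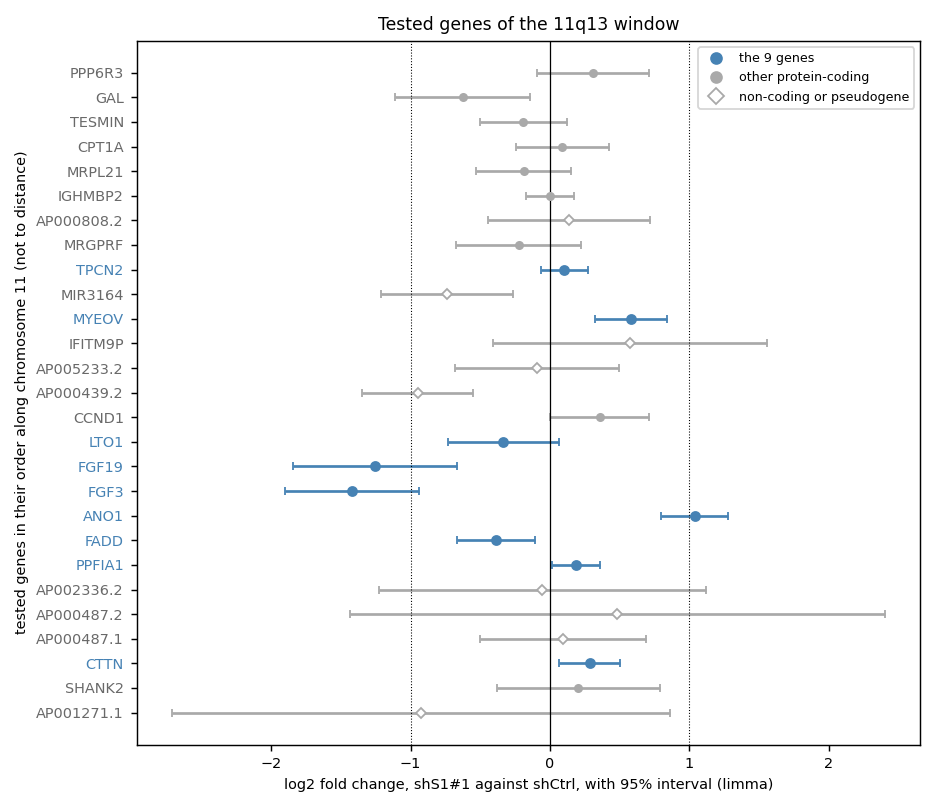
Log2 fold change of shS1#1 against shCtrl with its 95% interval (horizontal axis) for the 9 genes (blue) and the 18 other tested genes of the window (grey, open diamonds for non-coding genes and pseudogenes), from top to bottom in chromosome order and not to distance. FGF19 and FGF3, at -1.26 and -1.42, lie between LTO1 at -0.34 and ANO1 at 1.04, and dotted lines mark a log2 fold change of 1 in size.

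The genes that work with the 9 were described through 10 lists of receptors, partners and paralogs. They held 151 genes of the table, of which 114 were tested and 5 (4.39%) called, 4 higher and 1 lower, beside 3.16% of all genes. A further count, without the fold threshold, gave 26 genes (22.8%) with an adjusted p under 0.05 by limma, beside 2177 (14%) of all genes tested. It ran from 10 to 50 when 1 library was left out, with 10 or 11 without a shCtrl library, 18 without shS1#1 replicate 1, 12 without replicate 3 and 50 without replicate 2. The shares of all genes in these fits are not given. Nothing about the partners is therefore read from such left-out counts, here or below.

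Receptors came first in the signalling chain. None of the 7 tested receptors and co-receptors was called (median log2 fold change 0.18, against -0.02 over all genes). With an adjusted p under 0.05 alone, 3 were lower and 1 higher, beside 14% of all genes tested, of which 63.0% were higher. These 4 receptors and co-receptors became 1 to 6 when 1 library was left out. The higher one, SDC4, is named after its values were seen and encodes syndecan-4, a heparan sulphate co-receptor. It rose from 108 ± 1.17 to 182 ± 30.4 FPKM (SD, n = 3 each), or by 0.74 on the log2 scale (SE 0.12, adjusted p = 0.0123 by limma). FGFR4, the receptor that FGF19 uses, was at 14.1 ± 0.77 FPKM in shCtrl and 10.1 ± 0.20 FPKM in shS1#1 (SD, n = 3 each), and it fell by 0.47 on the log2 scale (SE 0.07, adjusted p = 0.00794 by limma). Without 1 library the adjusted p ran from 0.00372 to 0.0535. KLB, the co-receptor for FGF19, was close to absent, at 0.0480 FPKM in shCtrl and 0.0847 FPKM in shS1#1 on 3 to 10 reads per library, and it was not tested. FGFRL1, a receptor relative that lacks the kinase domain, had the smallest p of the list. It fell from 13.5 ± 0.60 to 9.34 ± 0.32 FPKM, a log2 fold change of -0.52 (SE 0.07, adjusted p = 0.00546 by limma), and the adjusted p was at most 0.0416 when any 1 library was left out.

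None of the 21 genes of the relay from receptor to kinase was called (median 0.10). GAB1, a docking adaptor that links receptors to PI3 kinase, had the smallest p, with 1.60 ± 0.11 FPKM in shCtrl, 2.48 ± 0.36 FPKM in shS1#1 and a log2 fold change of 0.59 (SE 0.13, adjusted p = 0.0322 by limma). Without 1 library its adjusted p ran from 0.0217 to 0.122.

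The feedback and response genes held the largest change among the partners. Of 17 tested, 2 were called, both higher (median 0.30). With an adjusted p under 0.05 by limma alone there were 9, of which 7 were higher and 2 lower. This stands beside 14% of all genes tested, of which 63.0% were higher. The 9 feedback and response genes became 4 to 11 when 1 library was left out. Sprouty genes among them went both ways, with log2 fold changes of -0.73 for SPRY1 and 0.59 for SPRY3. The dual specificity phosphatase genes DUSP5 (0.91) and DUSP6 (0.58) were among the 7 higher. SPRY1, SPRY3, DUSP5 and DUSP6 are named after their values were seen. DUSP4, a nuclear phosphatase that inactivates MAP kinases, was at 0.869, 0.868 and 0.812 FPKM in shCtrl and 4.05, 5.04 and 3.70 FPKM in shS1#1. It rose by 2.19 on the log2 scale (SE 0.14, adjusted p = 0.000566 by limma), in all 3 libraries. FLRT3, a membrane protein that binds FGF receptors, rose from 3.84 ± 0.17 to 8.12 ± 0.73 FPKM, a log2 fold change of 1.06 (SE 0.09, adjusted p = 0.00123 by limma). The call was lost, with log2 fold changes of 0.91 to 0.99, at a pseudocount of 1 FPKM, on scaling by summed reads and without shS1#1 replicate 2, which leaves DUSP4 as the 1 called gene of the list. CCND1, given above, is also in this list.

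Of the 20 other fibroblast growth factor genes in the table, only 3 passed the filter on low values, and 1 was called. FGF20, a paracrine ligand of the FGF9 subfamily, was at 10.4, 11.5 and 9.43 FPKM in shCtrl and 4.62, 4.46 and 4.86 FPKM in shS1#1, without overlap. It fell by 1.15 on the log2 scale (SE 0.09, adjusted p = 0.00107 by limma). Its level in shCtrl was close to that of FGF3, and it lies on another chromosome. FGF18, named after its values were seen, was close to the rule, with a log2 fold change of -0.97 (SE 0.24, adjusted p = 0.0480 by limma). It was called at a pseudocount of 0.01 FPKM, on scaling by summed reads, by voom and without shS1#1 replicate 2.

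Partners of the other genes of the stretch followed. Among 11 tested death-domain partners of FADD (median 0.23), TNFSF10 was called. It encodes the death receptor ligand TRAIL and measured 2.05, 2.45 and 2.35 FPKM in shCtrl and 7.25, 6.46 and 6.89 FPKM in shS1#1, a rise of 1.55 on the log2 scale (SE 0.10, adjusted p = 0.000547 by limma). Among 20 tested cortactin partners and Arp2/3 subunits (median 0.11), CTTNBP2NL, which encodes a cortactin-binding protein, was called. It rose from 4.43 ± 0.47 to 10.2 ± 2.59 FPKM, a log2 fold change of 1.16 (SE 0.18, adjusted p = 0.0108 by limma). That call rested on single libraries, as it was lost without shCtrl replicate 3 (adjusted p = 0.0536) and without shS1#1 replicate 2 (log2 fold change 0.97).

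In the remaining 4 lists no gene was called. Of 10 tested endolysosomal channels and partners (median 0.07), TPCN1, the paralog of TPCN2, had the smallest p. It rose from 9.72 ± 0.23 to 17.5 ± 1.65 FPKM, a log2 fold change of 0.84 (SE 0.08, adjusted p = 0.00219 by limma), with an adjusted p of at most 0.0197 when any 1 library was left out. TPCN2 itself had 0.10. Of 5 other anoctamins (median -0.09), ANO10 had the smallest p, with a log2 fold change of 0.44 (SE 0.12, adjusted p = 0.0605 by limma). ANO8, named after its values were seen, was called when shS1#1 replicate 2 was left out. Of 10 liprins and their partners (median 0.08) this was the receptor phosphatase PTPRS, at -0.71 (SE 0.24, adjusted p = 0.10 by limma). Of 10 genes of cytosolic iron-sulphur assembly, the LTO1 partners among them (median -0.18), it was NDOR1, at -0.18 (SE 0.07, adjusted p = 0.148 by limma).

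**Figure D4:**
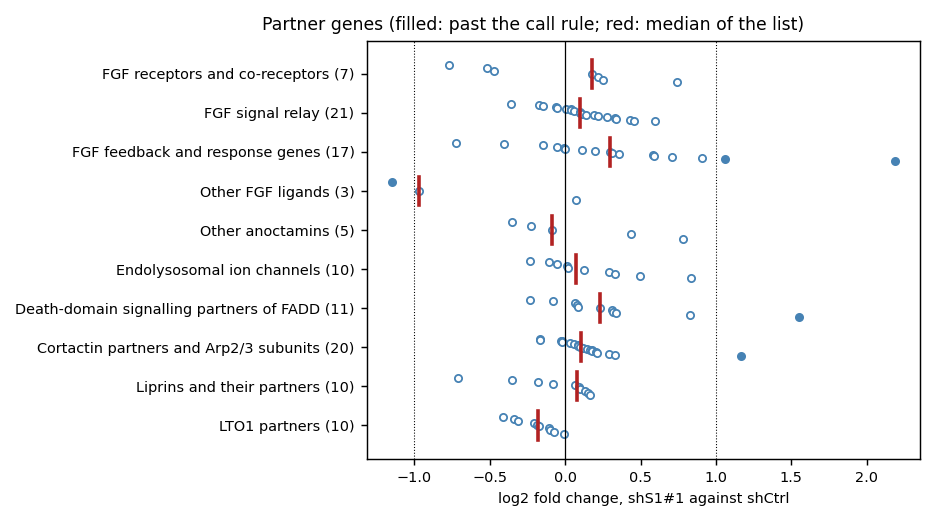
Log2 fold change of shS1#1 against shCtrl (horizontal axis) for each tested gene of the 10 partner lists (rows, with the number tested), filled where the gene was called, with the median of each list in red and dotted lines at a log2 fold change of 1 in size. The 5 filled points are DUSP4 at 2.19, TNFSF10 at 1.55, CTTNBP2NL at 1.16, FLRT3 at 1.06 and FGF20 at -1.15.

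Some of the 9 genes share exonic bases with others, and whether strand was used in counting was not given in the sources used here, so reads from opposite strands cannot be told apart. LTO1 shares 497 bases (6.31% of its exonic bases) with CCND1 on the opposite strand, a gene with 5209 to 7434 reads per library against 360 to 751 for LTO1. FADD shares 1011 bases, 54.9% of its exonic bases, with the antisense gene AP000879.1, and ANO1 shares 646 bases (10.7%) with ANO1-AS1. Both antisense genes had 0 reads in all libraries. Their whole exonic length is shared, and how reads on shared bases were counted was not given. These counts of 0 therefore cannot show that the antisense genes were silent. Reads on the shared bases may also be missing from the counts of FADD and ANO1. PPFIA1 and CTTN share 549 and 85 bases with AP000487.1, which had 36 to 56 reads per library. FGF3, FGF19 and MYEOV shared no exonic base with another gene.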

How the data were processed

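RNA-seq libraries of NCI-N87 cells (3 shCtrl, 3 shS1#1) were analysed. FPKM for every gene in each library were deposited by the authors, made by Novogene. The submitters' processing notes name HISAT2 2.0.5, featureCounts 1.5.0-p3 and DESeq2 1.20.0 on hg38. FPKM multiplied by gene length was a whole multiple of 1 step per library for 100% of values (tolerance 0.01 reads), and division by that step (60.0 to 73.0) gave the reads per gene, hence the depth. Depth limits mainly genes with few reads, and counting error is only part of the spread between libraries. All columns of values per sample were used.

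Log2(FPKM + 0.1) was fitted with limma 3.58.1 (lmFit, eBayes with trend, R 4.3.3) for genes averaging 0.5 FPKM or more, two-sided, with Benjamini-Hochberg adjustment over all 15556 genes. The fit was run on simulated counts with the same dispersion for every gene, no deviating library and planted changes larger than the fold threshold. That run does not cover calls near the threshold or a library such as shS1#1 replicate 2. The members and lists were chosen with earlier results of these data known, and the 9 genes therefore get no p. Well known members of each gene family or pathway made up the hand-written lists.

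Named genes were the 9 genes, SCAMP1, CCND1, FGF4, SHANK2, window genes with an adjusted p under 0.05, FGFR4, KLB, for each list the called genes or otherwise the gene with the smallest p, and the 3 genes most like FGF3. Exonic overlaps came from GENCODE 29, whose coordinates matched those of all 64 window genes, and promoters from RefSeq (Python 3.11.15, pandas 2.3.3). MYEOV, FGF19 and CTTN had no promoter entry in that table. The 17 alternatives covered pseudocount, filter, scaling, trend, voom on the recovered reads, replicate block, fold threshold, biotype and leaving out each library.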

Additional observations from a re-analysis of the deposited data

How the results depend on the processing

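Over the 17 alternatives none of the 9 genes changed direction, nor did SCAMP1. The same held for the tested genes of the window and lists named above, other than SPRY1, SPRY3, DUSP5 and DUSP6. For these the direction was not followed over the alternatives. AP000439.2 could be fitted in 15 of the 17, and SHANK2, FGF18 and PTPRS in 16. FGF3 was called in every one of the 17 (log2 fold change -1.54 to -1.19). With a pseudocount of 1 FPKM the log2 fold changes of FGF19 (-0.69) and ANO1 (0.79) were under the fold required, leaving 1 of the 9 genes and 248 of all genes called. Scaling the libraries by summed reads gave 0.97 for ANO1, also under it, and moved the median of all genes from -0.02 to -0.09. Without the fold threshold MYEOV (0.58) was called too, with 2177 of all genes and 26 partner genes. AP000439.2 made 1 called window gene with a pseudocount of 0.01, scaling by summed reads, voom or no fold threshold. Leaving out 1 library gave -1.50 to -1.12 for FGF19 and 0.99 to 1.11 for ANO1. In these fits 1 to 3 of the 9 genes were called, beside 364 to 538 of all genes. The value of 1 came without shCtrl replicate 1, where 364 of all genes were called. Depth limits FGF19 most, with at least 18 reads per library.

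No pairing by replicate number was seen, as deviations of same-numbered libraries correlated at -0.04, 0.03 and 0.07. Deviations from the mean of only 3 libraries are tied to each other, so these values cannot show whether the libraries were prepared in pairs. With the replicate block 389 genes were called in place of 492, with the same 3 of the 9 genes among them. Partner genes with an adjusted p under 0.05 by limma went from 26 to 12, and the share of all genes at that threshold is not given.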

Other observations

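Over the 6 libraries, the protein-coding genes averaging 5 FPKM or more whose log2 levels followed FGF3 most closely were TK1, TENT4A and OSTC, with Pearson's r of 0.9996, 0.9992 and 0.9990 among 6572 genes compared. The 6 points form 2 groups and share the deviation of shS1#1 replicate 2, so these values are a description. TK1, the thymidine kinase gene of dividing cells, had a log2 fold change of -0.27, TENT4A, a poly(A) polymerase gene, -0.25, and OSTC, a gene of the oligosaccharyltransferase complex, -0.42, all far smaller than that of FGF3.

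The long non-coding RNA gene AP003555.3 (chromosome 11, 69985876 to 70015815, forward strand) covers the RefSeq start of ANO1. It had 0 reads in all 6 libraries, which allows up to 3 reads per library. The ANO1 gene model, 92395 bases downstream of that start, had 175 to 380 reads. AP003555.3 has a gene length of only 432 bases, and how reads that fall on several genes were counted was not given. Its count of 0 therefore cannot show whether that start of ANO1 was used.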
